A study of Mus musculus with 9 samples.

Results

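The genes described here encode parts of the excitatory synapse, on its receiving and its sending side. They are 4 AMPA receptor subunits, 5 kainate receptor subunits and 7 NMDA receptor subunits with the delta receptor Grid1. To these come 6 metabotropic glutamate receptors, 3 vesicular glutamate transporters, 8 postsynaptic scaffold proteins and 2 cornichons, 36 genes in all. They were chosen by name, each symbol was matched to 1 gene of the 52550 in the count table, and all 36 passed the filter on low counts that left 18699 genes to test. Adult female C57BL/6N mice formed 3 groups of 3. Sham mice had the laminectomy without a contusion. SCI mice had a contusion at T10 and intraperitoneal DMSO, the vehicle. SCI+FIPI mice had the same contusion and daily intraperitoneal FIPI, an inhibitor of phospholipase D. The paper names no injection for the Sham mice, so in SCI against Sham the contusion and the vehicle cannot be told apart. Poly(A) RNA was sequenced from a 1 cm segment of spinal cord around the epicenter on day 7, so every value is an average over all cells of that segment.

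Glutamate is the main excitatory transmitter of the spinal cord. It is loaded into synaptic vesicles by the VGLUT transporters, opens the AMPA, kainate and NMDA receptor channels on the receiving neuron, and acts more slowly through the metabotropic receptors, which are coupled to G proteins. PSD-95 family, Shank and Homer proteins hold the receptors in the postsynaptic density, and cornichons accompany AMPA receptors to the surface. In the cord these genes serve sensory relay, interneuron circuits and motor neurons, and some of them, such as Grm3 and Grm5, are also made by astrocytes.

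The libraries held 20806000 to 24582377 counts per mouse. Levels are given as CPM, the count of a gene scaled to a common library size with TMM factors, for each of the n = 3 mice of a group in the order of the replicate numbers. A gene was called when its log2 fold change was at least 0.5 in size and its edgeR adjusted p was under 0.05. The count tables were checked against cell type markers, of which the neuronal, astrocytic and oligodendrocytic ones were present in every mouse. SCI replicate 3 had the lowest level among the SCI mice for 26 of the 36 genes, and SCI replicate 1 had the highest for 25. SCI+FIPI replicate 3 was the lowest of its group for 21 genes, and Sham replicate 3 was the highest of its group for 19.

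To show the regulatory sequence beside which the levels stand, the 250 bases before the start of 3 genes are printed from the RefSeq promoter table of GRCm38.p6: Gria2, an AMPA subunit called lower after injury, Grin1, the subunit every NMDA receptor needs and one of the genes called in both the injury and the FIPI comparison, and Grik5, a subunit whose level was not called after injury. They lie at chr3:80802836-80803085, chr2:25319188-25319437 and chr7:25072370-25072619, all on the minus strand, and read 5′ to 3′ in the direction of the gene. Capitals mark the GC box letters GGGCGG and the right part of the RE1 element bound by the neuronal gene repressor REST, GGACAG, on either strand.
Gria2: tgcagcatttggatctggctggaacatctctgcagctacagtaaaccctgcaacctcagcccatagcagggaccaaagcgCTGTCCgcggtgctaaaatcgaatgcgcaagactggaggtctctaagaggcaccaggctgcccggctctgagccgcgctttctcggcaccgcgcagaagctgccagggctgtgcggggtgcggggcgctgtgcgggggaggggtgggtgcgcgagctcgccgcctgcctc
Grin1: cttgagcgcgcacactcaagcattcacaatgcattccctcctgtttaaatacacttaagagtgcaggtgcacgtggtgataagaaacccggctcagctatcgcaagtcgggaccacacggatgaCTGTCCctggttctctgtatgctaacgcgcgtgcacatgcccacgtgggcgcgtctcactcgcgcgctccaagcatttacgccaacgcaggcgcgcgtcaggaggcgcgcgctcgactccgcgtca
Grik5: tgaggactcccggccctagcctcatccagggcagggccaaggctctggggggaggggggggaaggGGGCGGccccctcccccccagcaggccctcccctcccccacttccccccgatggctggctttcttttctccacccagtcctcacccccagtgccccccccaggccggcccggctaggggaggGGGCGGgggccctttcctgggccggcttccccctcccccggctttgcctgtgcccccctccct
The Gria2 and Grin1 windows each held the right part of RE1 once, and the Grik5 window held the GC box in 2 places and no part of RE1. The GC content of the windows was 64.8% for Gria2, 58.8% for Grin1 and 75.2% for Grik5. The table gave 36 windows for 25 of the 36 genes. The letters of the right part of RE1 occurred in 22.2% of these windows and in 18.7% of the 32851 windows of all genes, those of the left part, CAGCACC, in 5.56% and 5.73%, and the cAMP response element TGACGTCA in 0 of 36 and in 1.55%. The GC box occurred in 47.2% of the member windows against 32.7% of all, and the median GC content was 61.6% against 52.4%. These are exact matches of letters in a short window, and no binding was measured. Near matches were not counted. In Gria2, read on the other strand, AGCACC, the left part without its first base, lies close to the right part.

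The question put to the Sham and SCI groups was how far the glutamatergic transcripts differed a week after contusion. Of the 36 genes, 31 were called lower in SCI and 1, the scaffold gene Homer3, was called higher. Among all genes tested 47.0% were called, 22.5% lower and 24.4% higher. The median log2 fold change of the 36 genes was -1.20, beside a median at 0 over all genes, and the values ran from -3.82 for Slc17a7 to 1.19 for Homer3. The summed level of the 36 genes was 2685 to 2883 CPM in Sham mice, 1144 to 1322 CPM in SCI mice and 1552 to 1609 CPM in SCI+FIPI mice. All 12 neuron markers (Rbfox3, Snap25, Syt1 and others) were also called lower in SCI, with a summed level of 9115 to 10310 CPM in Sham, 3095 to 4233 CPM in SCI and 4903 to 5709.9 CPM in SCI+FIPI. For 34 of the 36 genes every SCI mouse lay under every Sham mouse and for 1 gene above, where 70.5% of all genes did not overlap, 35.0% lower and 35.6% higher. CPM is a share of the library. In tissue of this kind, fewer neurons, less RNA per neuron and more RNA from other cells cannot be told apart.

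**Figure D1:**
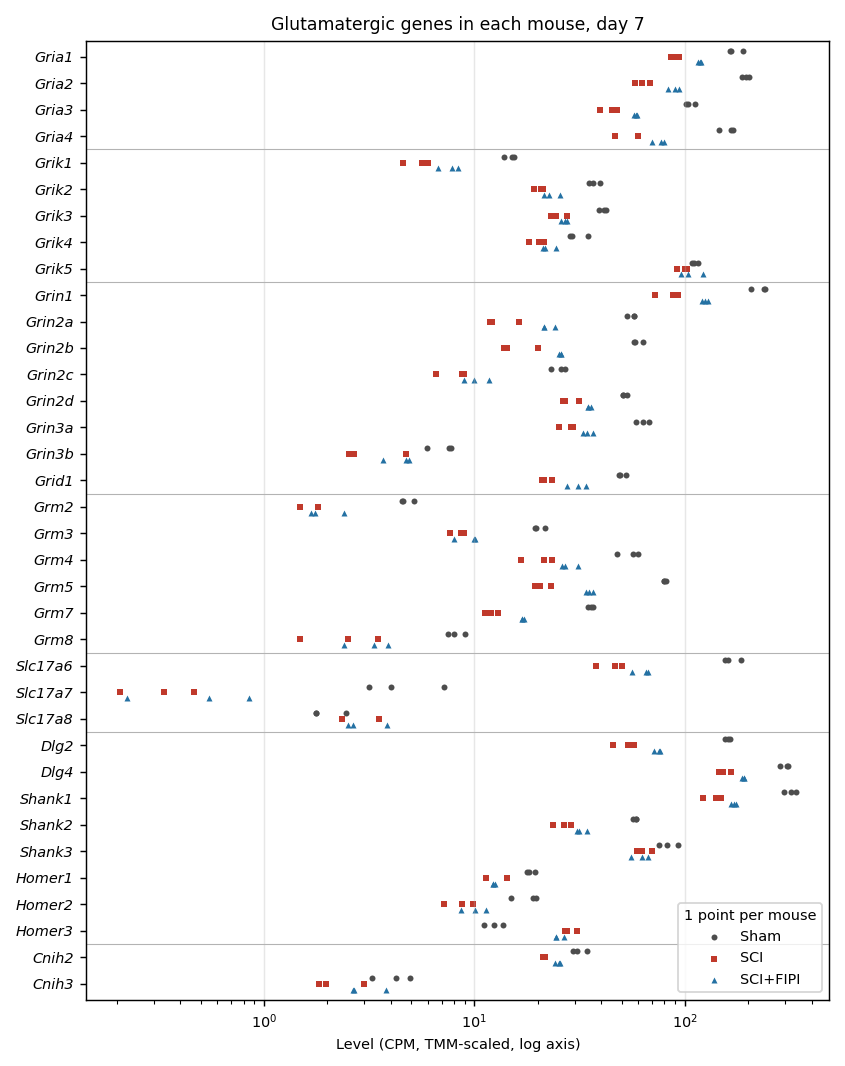
Level of each of the 36 genes in each of the 9 mice, in TMM-scaled CPM on a log axis, grouped by role from AMPA subunits at the top to cornichons at the bottom. Sham points lie above SCI points without overlap for 34 genes, Homer3 lies the other way round, and Slc17a8 overlaps.

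All 4 AMPA receptor subunits, which carry the fast excitatory current, were called lower in SCI. Gria2, the subunit that keeps AMPA receptors impermeable to calcium once its message is edited, stood at 187, 202 and 195 CPM in the Sham mice, 68.6, 62.5 and 58.0 CPM in the SCI mice and 93.3, 89.6 and 83.2 CPM in the SCI+FIPI mice. The 3 groups did not overlap, and SCI+FIPI lay between the others. Its log2 fold change in SCI against Sham was -1.63 ± 0.0699 (SE, edgeR adjusted p = 1.45e-10). Once the GC content and length of genes were offset it was -1.08 and still called, and Gria4 at -1.41 then had the lowest value of the AMPA subunits. Gria1, which supplies the subunit recruited in activity-dependent strengthening of synapses, stood at 188, 164 and 166 CPM in Sham, 94.3, 91.2 and 85.6 CPM in SCI and 119, 118 and 116 CPM in SCI+FIPI. Here too every SCI mouse lay under every SCI+FIPI mouse and those under every Sham mouse. The log2 fold change of Gria1 was -0.93 ± 0.0639 (SE, edgeR adjusted p = 9.65e-09), the least negative of the 4. Gria3 and Gria4 were at -1.26 and -1.54.

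The kainate receptor subunits spread more widely, and 4 of 5 were called lower. Grik1, a subunit that forms channels on its own or with others, was at 15.5, 13.8 and 15.1 CPM in Sham, 6.04, 4.59 and 5.65 CPM in SCI and 6.75, 8.35 and 7.80 CPM in SCI+FIPI. The groups were apart from each other in every mouse, and the log2 fold change in SCI was -1.45 ± 0.130 (SE, edgeR adjusted p = 1.61e-07). Grik5, a high-affinity subunit that needs a partner to form a channel, was at 116, 110.2 and 108 CPM in Sham, 100.4, 102 and 91.9 CPM in SCI and 95.8, 104 and 122 CPM in SCI+FIPI. The SCI mice lay just under the Sham mice, the SCI+FIPI mice spanned both groups, and the difference between SCI and Sham was not called (log2 fold change -0.18 ± 0.0798, SE, edgeR adjusted p = 0.0589). Grik2, Grik3 and Grik4 were called lower at -0.87, -0.71 and -0.63, of which Grik2 was at -0.42 and not called once GC content and gene length were offset.

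Each of the 7 NMDA receptor genes and Grid1 was called lower. NMDA receptors are channels that open only when glutamate binds and the membrane is depolarized, and they pass calcium. Grin1, present in every NMDA receptor, was at 239, 207 and 241 CPM in Sham, 92.3, 88.3 and 72.5 CPM in SCI and 125, 129 and 121 CPM in SCI+FIPI, without overlap of any groups. Its log2 fold change in SCI against Sham was -1.44 ± 0.0871 (SE, edgeR adjusted p = 5.41e-09). Grin2a, a subunit typical of mature synapses, was at 57.3, 52.9 and 57.6 CPM in Sham, 16.3, 11.8 and 12.1 CPM in SCI and 24.2, 21.3 and 21.5 CPM in SCI+FIPI. The SCI mice were all far under the Sham mice, and the highest of them, replicate 1, lay under every SCI+FIPI mouse. Grin2a had the lowest fold change of the NMDA receptor subunits, -2.06 ± 0.109 on the log2 scale (SE, edgeR adjusted p = 1.09e-09).

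Grin2b, whose product gives slower channels and prevails in development, was at 57.3, 58.2 and 63.5 CPM in Sham, 20.1, 14.3 and 13.8 CPM in SCI and 25.7, 25.7 and 25.1 CPM in SCI+FIPI. Replicate 1 stood above the other SCI mice, the 3 SCI+FIPI mice were nearly alike, and no groups overlapped. The log2 fold change in SCI was -1.89 ± 0.116 (SE, edgeR adjusted p = 1.12e-08). Grin2d, a subunit with weak magnesium block, was the least affected of the class by this measure, at 53.1, 50.7 and 50.9 CPM in Sham, 31.5, 26.8 and 26.3 CPM in SCI and 34.5, 35.9 and 34.5 CPM in SCI+FIPI. Again the groups were apart, and the log2 fold change in SCI was -0.87 ± 0.0748 (SE, edgeR adjusted p = 9.75e-08). Grin2c, Grin3a, Grin3b and Grid1 lay between -1.64 and -1.09.

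All 6 metabotropic receptors were called lower. Grm5, which signals through phospholipase C and calcium release, was at 81.0, 79.9 and 79.9 CPM in Sham, 20.5, 19.4 and 23.1 CPM in SCI and 36.5, 35.1 and 34.0 CPM in SCI+FIPI. The spread within each group was small next to the gaps between them. Its log2 fold change in SCI was -1.93 ± 0.0709 (SE, edgeR adjusted p = 5.02e-11). Grm3, which lowers cAMP and is made by astrocytes as well as neurons, was at 19.4, 19.7 and 21.7 CPM in Sham, 8.97, 8.68 and 7.68 CPM in SCI and 10.1, 10 and 7.97 CPM in SCI+FIPI. The injured groups overlapped each other and both lay under Sham. With -1.26 ± 0.114 (SE, edgeR adjusted p = 1.59e-07), Grm3 had the least negative log2 fold change of the class, while Grm2, Grm4, Grm7 and Grm8, which also lower cAMP, lay between -1.72 and -1.42.

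**Figure D2:**
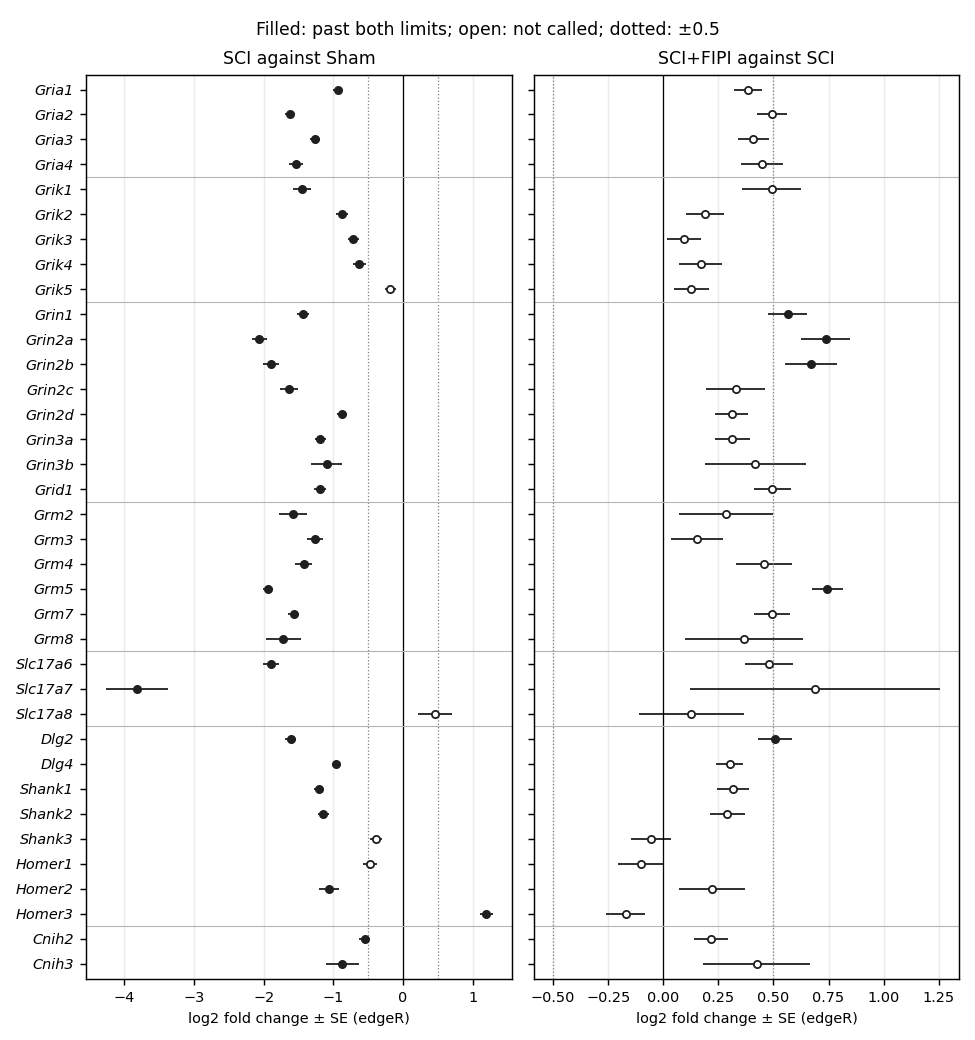
Log2 fold change of each gene with a standard error derived from the edgeR F statistic. SCI against Sham is on the left and SCI+FIPI against SCI on the right, on axes of different range. Filled points passed both limits: 32 genes on the left, of which Homer3 alone lies right of 0, and 5 genes on the right, all right of 0.

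The 3 vesicular transporters differed from each other. Slc17a6 (VGLUT2), the main vesicular transporter of spinal excitatory interneurons, was at 156, 160.5 and 185 CPM in Sham, 46.7, 50.4 and 37.7 CPM in SCI and 66.5, 65.2 and 56.2 CPM in SCI+FIPI, with no overlap and a log2 fold change of -1.89 in SCI. Slc17a7 (VGLUT1), which in the cord marks endings of large sensory and corticospinal fibers more than local cell bodies, was scarce, at 3.16, 4.02 and 7.19 CPM in Sham, 0.335, 0.207 and 0.464 CPM in SCI and 0.224, 0.848 and 0.545 CPM in SCI+FIPI. Both injured groups lay far under Sham and overlapped each other, and each injured mouse gave between 5 and 20 counts, so that the fold change is imprecise. It was the lowest of the 36 genes, at -3.82 ± 0.448 on the log2 scale (SE, edgeR adjusted p = 6.74e-06). Slc17a8 (VGLUT3) was at 1.77, 2.46 and 1.76 CPM in Sham, 3.52, 2.36 and 2.36 CPM in SCI and 2.64, 2.50 and 3.86 CPM in SCI+FIPI. Sham and SCI overlapped, and the log2 fold change of 0.46 ± 0.248 was not called (SE, edgeR adjusted p = 0.119).

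Of the 8 scaffold genes, 5 were called lower, 2 were not called and Homer3 was called higher. Dlg2 (PSD-93), a PSD-95 relative that binds NMDA receptor tails, was at 155, 161 and 164 CPM in Sham, 53.9, 57.6 and 45.5 CPM in SCI and 75.2, 76.5 and 71.3 CPM in SCI+FIPI. The groups were apart, and at -1.61 ± 0.0759 (SE, edgeR adjusted p = 3.09e-10) Dlg2 had the lowest log2 fold change of the scaffolds. Dlg4, which encodes PSD-95 itself, Shank1, Shank2 and Homer2 were called lower at -0.96, -1.21, -1.14 and -1.06. Shank3, the scaffold also made outside neurons, was at 82.0, 75.4 and 93.1 CPM in Sham, 62.6, 69.9 and 59.0 CPM in SCI and 55.2, 66.5 and 62.7 CPM in SCI+FIPI. Its injured groups overlapped each other under Sham, and its log2 fold change of -0.39 ± 0.0908 had an edgeR adjusted p of 0.00195 but did not reach the fold limit.

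The Homer proteins link metabotropic receptors to Shank. Homer1 was at 17.7, 18.1 and 19.5 CPM in Sham, 11.3, 14.3 and 14.3 CPM in SCI and 12.3, 12.2 and 12.5 CPM in SCI+FIPI. Both injured groups lay under Sham, and the log2 fold change of -0.48 ± 0.102 in SCI missed the fold limit (edgeR adjusted p = 0.000813). It was called lower, at -0.51, -0.53 and -0.53, without Sham replicate 1, SCI replicate 2 and SCI replicate 3, and at -0.54 with upper-quartile factors, whereas with the offsets for GC content and length Homer1 was at 0.00. Homer3 was at 11.1, 12.4 and 13.6 CPM in Sham, 27.0, 27.4 and 30.6 CPM in SCI and 24.5, 24.4 and 26.6 CPM in SCI+FIPI. Every injured mouse lay above every Sham mouse, at 229% of the Sham mean in SCI, a log2 fold change of 1.19 ± 0.0928 (SE, edgeR adjusted p = 3.51e-08). Of the exonic bases of Homer3, 25.4% lie opposite exons of Ddx49 on the other strand, and the use of strand in counting was not given in the sources used here. Ddx49 had a log2 fold change of 0.22 (edgeR adjusted p = 0.0383), and its part in the Homer3 value was not tested.

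**Figure D3:**
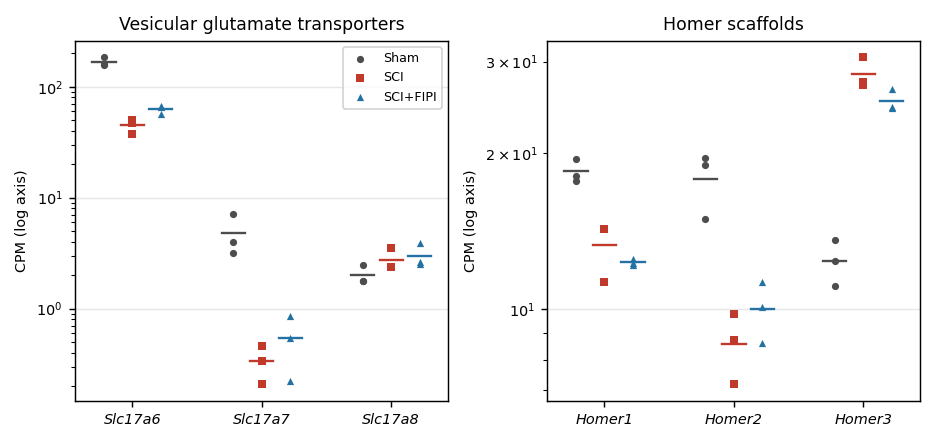
Levels of the 3 vesicular glutamate transporter genes on the left and of the 3 Homer genes on the right, in CPM on log axes, with 1 point per mouse and a bar at each group mean. Slc17a6 and Slc17a7 are lower in the injured groups and Homer3 is higher, with all Homer3 values of injured mice at or above 24.4 CPM and all those of Sham mice at or under 13.6 CPM.

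Both cornichons, which bind AMPA receptors and slow their closing, were called lower in SCI. Cnih2 was at 29.4, 34.2 and 30.6 CPM in Sham, 21.7, 21.2 and 21.6 CPM in SCI and 25.3, 24.2 and 25.5 CPM in SCI+FIPI, with a log2 fold change of -0.55 in SCI. Cnih3, much scarcer by count, was at 4.93, 4.23 and 3.26 CPM in Sham, 2.98, 1.82 and 1.98 CPM in SCI and 3.80, 2.67 and 2.64 CPM in SCI+FIPI, with a log2 fold change of -0.87. Sham and SCI did not overlap for either gene, but SCI+FIPI reached into both other groups for Cnih3. Without Sham replicate 2 the Cnih2 value was -0.48 and no longer called.

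The comparison of SCI+FIPI with SCI asked how the drug moved these genes in injured cord. It uses the same SCI mice as the comparison above, so the values of both rest in part on the same libraries. In SCI+FIPI, 33 of the 36 genes had the higher mean, and 5 were called, all higher, where 3.06% of all genes were called, 2.36% higher and 0.695% lower. The median log2 fold change was 0.35, beside 0 over all genes. By adjusted p alone 19 of the 36 passed, all with the higher level in SCI+FIPI, against 9.63% of all genes in either direction and 6.04% higher. Of the 12 neuron markers, 6 were called higher in the same comparison. Their summed level did not overlap between these groups.

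Grin2a and Grm5 had the highest called values, both 0.74 on the log2 scale, with standard errors of 0.111 and 0.0716 and edgeR adjusted p-values of 0.00303 and 0.000577. Relative to the Sham mean, Grin2a went from 24.0% in SCI to 40.0% in SCI+FIPI, and Grm5 from 26.2% to 43.9%. Grin2b followed at 0.67 ± 0.118 (SE, edgeR adjusted p = 0.00672), from 26.9% of Sham to 42.8%. Grin1 was at 0.56 ± 0.0865 (SE, edgeR adjusted p = 0.00347), from 36.9% of Sham to 54.5%. Dlg2 passed narrowly at 0.51 ± 0.0757 (SE, edgeR adjusted p = 0.0029), from 32.7% of Sham to 46.5%. These are 3 subunits of the NMDA receptor, a scaffold that binds NMDA receptor tails and a metabotropic receptor. The other NMDA receptor genes, Grin2c, Grin2d, Grin3a and Grin3b, and the scaffold gene Dlg4 were not called. By adjusted p alone, 6 of the 8 NMDA and delta receptor genes passed, and so did 4 of the 8 scaffold genes, Dlg4 among them. Each of the 5 genes called stood higher in every SCI+FIPI mouse than in any SCI mouse, as 21 of the 36 genes did, beside 15.7% of all genes.

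The number called turned on single mice. It was 13 without SCI replicate 1, 3 without SCI replicate 3 and 8 without SCI+FIPI replicate 3. The 8 genes added without SCI replicate 1 were Gria2, Gria4, Grik1, Grin3b, Grid1, Grm4, Grm7 and Slc17a6, at 0.51 to 0.77. Without SCI+FIPI replicate 3 the genes added were Gria2 at 0.54, Grid1 at 0.57 and Slc17a6 at 0.55, without SCI replicate 2 Gria4 at 0.50 and Slc17a6 at 0.57, and without SCI+FIPI replicate 1 Grik1 at 0.57 and Grm7 at 0.50. Grin1 was at 0.47 without SCI replicate 3 and no longer called, whereas Grin2a, Grin2b and Grm5 were called with each mouse left out in turn. Dlg2 lost the call at 0.48 with the offsets for GC content and length, at 0.42 without SCI replicate 3, at 0.50 without SCI+FIPI replicate 1 and at 0.49 without SCI+FIPI replicate 2. The same offsets added calls for Grik1 at 0.51, Grid1 at 0.52 and Grm7 at 0.51. SCI replicate 3, the mouse with the lowest summed level of the 36 genes, also had the lowest summed neuron marker level, 3095 CPM, and its part in these calls beyond the values given was not tested.

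All 4 AMPA subunits passed on adjusted p but not on fold, with log2 values from 0.38 for Gria1 to 0.49 for Gria2. Of the kainate subunits Grik1 alone did so, at 0.49, while Grik2, Grik3, Grik4 and Grik5 had values of 0.19, 0.09, 0.17 and 0.13. Among the metabotropic receptors Grm7 and Grm4 passed on adjusted p at 0.50 and 0.46, and Slc17a6 did so at 0.48. The 3 genes with the lower mean in SCI+FIPI were Homer3 at -0.17, Homer1 at -0.10 and Shank3 at -0.05, and their edgeR adjusted p-values were 0.247, 0.591 and 0.767. Homer3 did not overlap between these groups, as its highest SCI+FIPI mouse, 26.6 CPM, lay under its lowest SCI mouse, 27.0 CPM. Over all genes 30.2% did not overlap between SCI+FIPI and SCI, and of the 36 genes 21 were apart upward and 1 downward.

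Against Sham, 30 of the 36 genes were still called in SCI+FIPI, 29 lower and Homer3 higher at 1.02, where 38.1% of all genes were called, 17.0% lower and 21.2% higher. Of the 36 genes 32 lay lower and 2 higher in SCI+FIPI than in Sham without overlap, where 66.3% of all genes did not overlap. The median log2 fold change was -0.86. Slc17a7 remained lowest at -3.13, at 11.3% of the Sham mean, followed by Slc17a6 at -1.42 and 37.5%. The 6 genes not called were Grik4, Grik5, Cnih2, Cnih3, Shank3 and Slc17a8, with log2 values of -0.46, -0.05, -0.33, -0.45, -0.44 and 0.59. Single mice decided some of these calls. Grik4 was called at -0.51 and -0.52 without Sham replicate 2 and SCI+FIPI replicate 1, Cnih3 at -0.64 without SCI+FIPI replicate 1 and Shank3 at -0.51 without Sham replicate 2. Slc17a8 was called higher at 0.76, 0.59 and 0.70 without Sham replicate 2, SCI replicate 1 and SCI+FIPI replicate 2. It was also called with every mouse kept, at 0.60 without the filter on low counts. Requiring at least 10 counts in every mouse gave 0.59, and fitting only the 2 groups 0.60, both called. Gria1 lost its call at -0.49 without Sham replicate 1, and Grin3b at -0.62, -0.62 and -0.56 without Sham replicate 1, Sham replicate 3 and SCI+FIPI replicate 3. Homer1 was called in this comparison at -0.58 ± 0.103 (SE, edgeR adjusted p = 0.000206), but at -0.15 and not called with the offsets for GC content and length. The offsets also ended the calls of Grik2 at -0.28, Dlg4 at -0.42 and Gria1 at -0.49 in this comparison, and made calls of Grik4 at -0.53, Cnih3 at -0.60 and Slc17a8 at 0.71.

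To set these levels beside those of neurons in the same mouse, each gene was also taken relative to the mean log2 CPM of the 12 neuron markers, which was 1.39 lower in SCI than in Sham on the log2 scale and 0.50 higher in SCI+FIPI than in SCI. On this scale 19 of the 36 genes stood higher in every SCI mouse than in any Sham mouse, 8 stood lower and 9 overlapped. Because the neuron markers themselves fell, 86.9% of all genes stood higher in this way and 2.10% lower, 89.0% in all. The 8 genes that stood lower were Slc17a7 at -2.10, Grin2a at -0.67, Grm5 at -0.54, Grin2b at -0.52, Slc17a6 at -0.51, Grin2c at -0.25, Gria2 at -0.23 and Dlg2 at -0.22. Homer3 lay furthest above, at 2.59, then Slc17a8 at 1.83, Grik5 at 1.21 and Shank3 at 1.01. Grin1 differed from the markers by -0.05, with overlap. This scale carries no correction for GC content. With the offsets for GC content and length, the log2 fold change of Gria2 in SCI against Sham was -1.08 in place of -1.63. Over the alternatives Dlg2 reached -1.27 and Grin2b -1.47, outside their ranges with single mice left out (-1.68 to -1.52 and -2.09 to -1.79). Slc17a6 and Grin2c stayed at -1.98 to -1.76 and -1.72 to -1.51. The part of GC content in the relative values was not tested. With 3 mice against 3 the exact two-sided permutation test cannot go below p = 0.1, and the lowest adjusted p over the 36 genes was 0.133.

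In SCI+FIPI against SCI, 24 of the 36 genes overlapped on this scale, 12 stood lower and 0 higher. Over all genes 67.0% stood lower and 0.738% higher, 67.7% in all. The 5 genes called in this comparison all overlapped relative to the neuron markers, with differences of 0.25 for Grin2a, 0.25 for Grm5, 0.19 for Grin2b, 0.07 for Grin1 and 0.02 for Dlg2. The lowest adjusted p of the exact permutation test was 0.3. Whether the calls for these 5 genes go beyond the neuron markers was not shown by this measure at 3 mice per group. In SCI+FIPI against Sham 12 of the 36 genes stood higher and 10 lower, beside 80.3% and 2.57% of all genes, 82.9% in all.

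**Figure D4:**
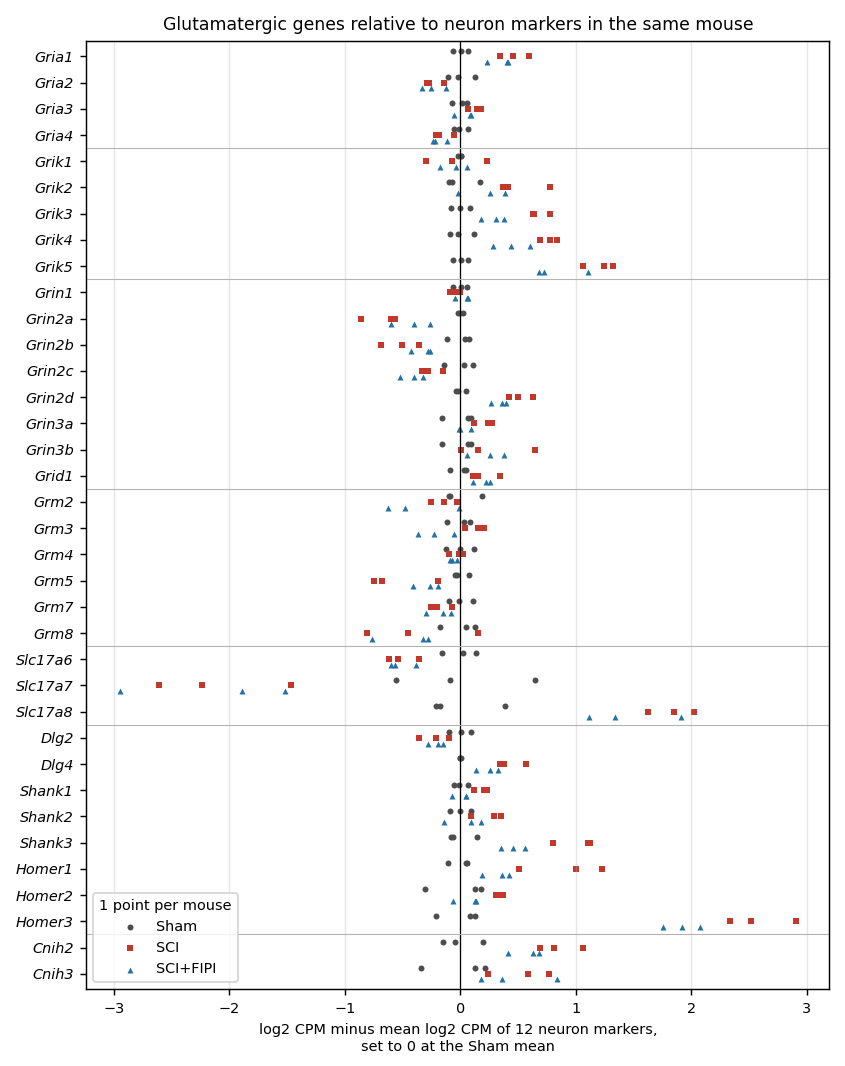
Log2 CPM of each gene minus the mean log2 CPM of 12 neuron markers in the same mouse, set to 0 at the Sham mean, with 1 point per mouse. Homer3 and Slc17a8 stand furthest to the right in the injured groups and Slc17a7 furthest to the left, while Grin1 stays near 0 in all groups.

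The make-up of each family was then followed as the share of each subunit in the family's summed FPKM, which divides counts by exon length so that genes can be compared. Of 31 subunits in 7 families, 7 had a higher share in every SCI mouse than in any Sham mouse and 16 a lower one. No background over all genes was made for shares. By level in CPM, a different measure, 70.5% of all genes did not overlap between these groups, near the 23 of 31 subunits apart here. The shares of a family are parts of a fixed total. A gain by a subunit lowers the others, and a share also rises where the other subunits fall further. In SCI the level of every AMPA, kainate, NMDA and Shank gene was lower than in Sham. The log2 fold changes of Gria1, Grik5, Grin2d and Shank3, whose shares rose, were -0.93, -0.18, -0.87 and -0.39. In the AMPA family Gria1 held 37.0% ± 1.86 in Sham and 46.4% ± 1.63 in SCI (SD, n = 3), while Gria2 held 16.2% ± 1.34 and 12.6% ± 0.394, Gria4 held 32.9% ± 1.45 and 27.1% ± 1.69, and Gria3 13.9% in both. The shares carry no correction for GC content, and with the offsets for GC content and length the log2 fold changes of Gria1 and Gria2 in SCI were -0.89 and -1.08, closer together than the -0.93 and -1.63 without them. In the kainate family Grik5 went from 59.4% ± 0.353 to 69.2% ± 1.24, and the other 4 subunits each held less. In the NMDA family Grin2d held 15.8% ± 0.684 in Sham, 22.1% ± 1.35 in SCI and 19.8% ± 0.460 in SCI+FIPI. Grin2a held 6.34% ± 0.0218, 3.88% ± 0.408 and 4.70% ± 0.398 in the same order, and for both subunits the 3 groups were apart.

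Among the 6 metabotropic receptors measured as one family, Grm3 held 21.1% ± 0.698 in Sham, 25.5% ± 0.336 in SCI and 20.7% ± 1.62 in SCI+FIPI, with SCI above both other groups in every mouse. Shank3 held 20.3% ± 0.864, 31.0% ± 1.62 and 25.8% ± 1.90 of the Shank total in the same order, and Shank1, the most abundant Shank per length, held 67.6% ± 0.434, 58.1% ± 1.91 and 62.7% ± 1.04. Homer3 held 54.9% ± 0.496 of the Homer total in Sham, 82.1% ± 1.31 in SCI and 80.0% ± 1.55 in SCI+FIPI. With the offsets Homer1, Homer2 and Homer3 were at 0.00, -0.78 and 1.06 on the log2 scale in SCI. Slc17a6 held most of the vesicular transporter total in all groups, 96.0% ± 0.760 in Sham and 92.7% ± 1.61 in SCI, while the share of Slc17a8 went from 1.33% ± 0.329 to 6.52% ± 1.42. By level, Slc17a6 was called lower in SCI and Slc17a8 was not called. The exact permutation p of each of these separate differences in share was 0.1, the lowest possible, and after adjustment over the 31 subunits 0.135 in SCI against Sham. In SCI+FIPI against SCI 5 subunits had a separately higher share and 4 a lower one, with adjusted p of at least 0.344. By level in CPM, again a different measure, 30.2% of all genes did not overlap between SCI+FIPI and SCI, near the 9 of 31 subunits apart here. No sum over a family can show which cells hold its transcripts.

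**Figure D5:**
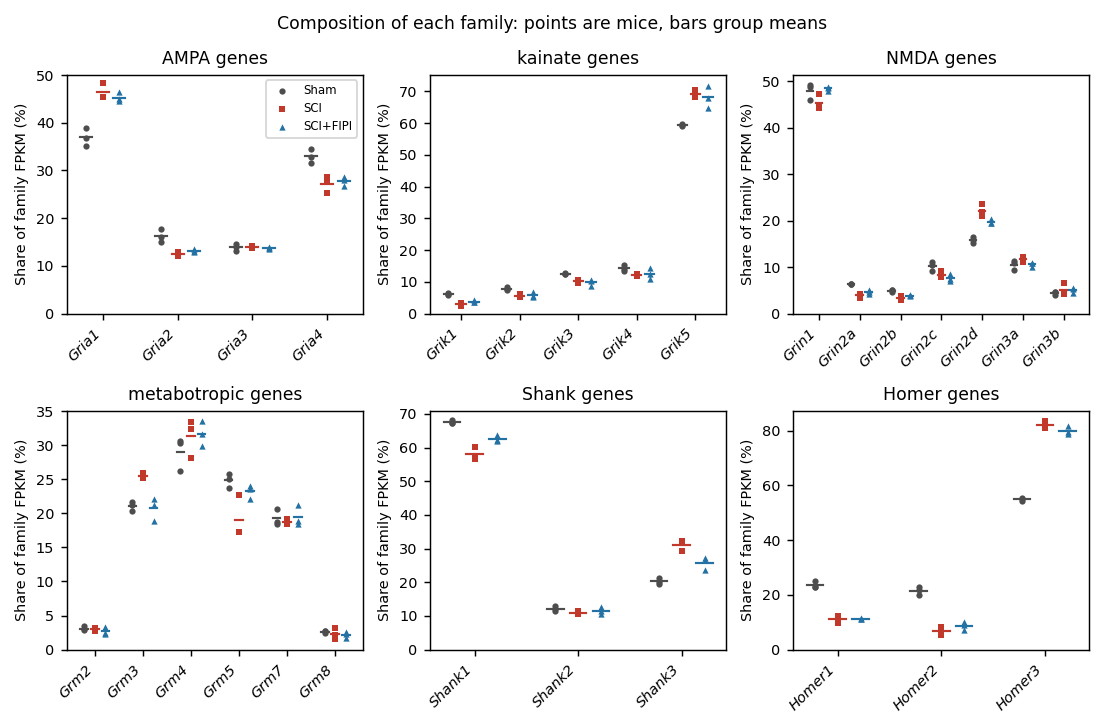
Share of each subunit in the summed FPKM of its family, in percent, for the AMPA, kainate, NMDA, metabotropic, Shank and Homer genes, with 1 point per mouse and a bar at each group mean. Gria1, Grik5, Grin2d, Shank3 and Homer3 hold more of their family in SCI than in Sham, and Gria2, Gria4, Shank1 and Homer2 less.

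Other genes of the pathway were followed through 55 genes in 4 lists, of which 54 were tested. In SCI against Sham 38 were called lower and 1 higher, beside 22.5% and 24.4% of all genes. In SCI+FIPI against SCI 7 were called, all higher, where 2.36% of all genes were called higher and 0.695% lower. In SCI+FIPI against Sham 32 were called lower and 1 higher, beside 17.0% and 21.2% of all genes. Of 19 auxiliary subunits and synaptic organizers 16 were called lower in SCI, with Cacng2, which encodes the AMPA receptor partner stargazin, lowest at -1.81, and 4 were called higher with FIPI, from Cacng3 at 0.51 to Lrrtm1 at 0.63. Of 20 other postsynaptic density genes 14 were called lower in SCI, from Dlgap2 at -1.59 to Nlgn3 at -0.59, and Camk2b, a subunit of the calcium-dependent kinase of the postsynaptic density, was the 1 called higher with FIPI, at 0.55. The 7 calls with FIPI became 13 without SCI replicate 1, 0 without SCI replicate 3, 3 without SCI replicate 2, 4 without SCI+FIPI replicate 1 and 3 without SCI+FIPI replicate 2. Without SCI replicate 3, 3 of the 54 genes reached the fold limit at an unadjusted edgeR p under 0.05.

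Of 13 genes of glutamate uptake and metabolism 6 were called lower in SCI. Slc7a11, the cystine and glutamate exchanger, was called higher at 0.92 (edgeR adjusted p = 0.0263). The share of this list called in SCI, 53.8%, was near the 47.0% of all genes, 22.5% lower and 24.4% higher. Slc1a2 (GLT-1), the main astrocytic glutamate transporter, was at 2336, 2289 and 2404 CPM in Sham, 1359, 1439 and 1196 CPM in SCI and 1610.2, 1596 and 1493 CPM in SCI+FIPI. It was apart in all groups and called lower in SCI at -0.82, but its 0.23 with FIPI was not called (edgeR adjusted p = 0.0641). Slc1a3 (GLAST), the other astrocytic transporter, had mean levels of 127, 127 and 131 CPM in Sham, SCI and SCI+FIPI, and was not called in any comparison. Glul, the astrocytic glutamine synthetase, was at -0.45 in SCI, under the fold limit. Gls2, a glutaminase that releases glutamate, was lowest of the list in SCI at -1.64 and was called higher with FIPI at 0.57.

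Markers of other cells moved with the groups as well. The 6 fibroblast markers summed to 329 to 926 CPM in Sham, 8840.5 to 11914 CPM in SCI and 8172 to 10483 CPM in SCI+FIPI, and 8 microglia and macrophage markers to 319.8 to 428 CPM, 1581 to 1891 CPM and 1288 to 1465 CPM. The 7 astrocyte markers summed to 7289 to 7839 CPM, 11842 to 13538 CPM and 11912 to 12587 CPM, a sum led by Gfap with means of 4136 CPM in Sham and 9620 CPM in SCI. Gfap, Aqp4 and Aldh1l1 were called higher in SCI, and Aldoc at -0.54 and Fgfr3 at -0.59 were called lower. The 7 oligodendrocyte markers summed to 31940 to 33445 CPM, 22094 to 24702 CPM and 22738 to 26863 CPM. The 4 motor neuron markers were all called lower in SCI and summed to 72.5 to 104 CPM in Sham, 31.5 to 54.6 CPM in SCI and 45.4 to 71.0 CPM in SCI+FIPI. Of the 5 dorsal root ganglion markers, Trpv1 and Scn10a did not pass the filter on low counts, Calca was called lower in SCI at -1.73, Avil was called higher at 0.98 and Prph, with means of 58.0, 41.5 and 66.6 CPM in Sham, SCI and SCI+FIPI, was not called. The part of these shifts in the values of the 36 genes was not tested.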

How the data were processed

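RNA from spinal cord was sequenced in 9 mice, 3 per group, 1 library per mouse. The authors deposited whole-number read counts per gene, not normalized. Per the labels, the processing notes name GRCm38 and R 4.2.3. The aligner, counter and annotation are not given in the sources used here, nor is the use of strand in counting. Of the 52550 genes, 52403 were matched by Ensembl identifier to GENCODE M21 for position, exon length and GC content.

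Counts were filtered with filterByExpr, scaled by TMM and fitted in edgeR 4.0.16 (R 4.3.3) by the robust quasi-likelihood test with 1 mean per group over all mice. p-values were adjusted by Benjamini-Hochberg over 18699 genes, and genes were called under an adjusted p of 0.05 if their log2 fold change was 0.5 or more in size. The standard error printed with a log2 fold change is the size of that change divided by the square root of the edgeR F statistic. Log2 CPM for single mice used a prior count of 2. FPKM was computed from counts, exon length and library total. Shares and levels relative to neuron markers were compared by exact two-sided permutation tests. The number of biological replicates limits precision, with a biological coefficient of variation of 9.3% and 6 residual degrees of freedom. Alternatives used other scaling factors and filters, offsets, DESeq2 1.42.0, limma-voom (limma 3.58.1), other limits and each mouse left out. The test scripts were tested on simulated counts, and the bar for passing was loosened after the simulated results were seen.

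The 36 genes, the other lists and the tests were chosen with earlier results of these data known. Values per mouse are given for the genes called with FIPI, for the highest and lowest fold change of each role in SCI against Sham, and for genes not called or called higher there. Of other pathway genes, the highest and lowest called are named, with Slc1a2, Slc1a3 and Glul. Some genes of these lists are not reported here by name. The promoters printed, the motifs and the overlapping genes were chosen after values were seen. Libraries of 1 group differed by more than counting noise in every pair, with a chi-square per gene of 6.62 to 12.9. None was thus a second sequencing of another. The measure cannot tell separate libraries of the same cord from those of separate mice.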

Additional observations from a re-analysis of the deposited data

How the results depend on the processing

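Of 2049 log2 fold changes of single genes under the alternatives, 1975 kept their direction and their side of the limits, 21 lost a call, 49 gained one and 4 uncalled values changed sign. In SCI+FIPI against SCI, Slc17a8 ran from -0.10 without SCI+FIPI replicate 3 to 0.35 as mice were left out, and Shank3 from -0.11 to 0.02 (without SCI replicate 2 or SCI+FIPI replicate 1). In SCI+FIPI against Sham, Grik5 ran from -0.15 to 0.02 (without SCI+FIPI replicate 1). DESeq2 kept the side of all 108. In SCI+FIPI against SCI the count of 5 became 10 with upper-quartile factors, 19 by adjusted p alone and 0 at a log2 fold change of at least 1, where edgeR at an unadjusted p under 0.05, DESeq2 and limma-voom also gave 0, and that of the other pathway genes became 18 and 0. Of all genes, 0.348% were called at that fold limit in this comparison. In SCI against Sham 19 of the 54 other pathway genes were called at that limit, beside 27.1% of all genes. In SCI+FIPI against Sham 10 of the 54 and 14 of the 36 were called, beside 18.1% of all genes. The median in SCI against Sham was -1.26 with upper-quartile factors, -1.13 with offsets for GC content and length and -1.14 with the offsets and the replicate block, and in SCI+FIPI against Sham -0.91, -0.74 and -0.74. Leaving out each mouse in turn gave 31 to 33, 3 to 13 and 28 to 33 genes called in SCI against Sham, SCI+FIPI against SCI and SCI+FIPI against Sham, 37 to 41, 0 to 13 and 32 to 34 other pathway genes, medians of -1.29 to -1.14, 0.26 to 0.41 and -0.90 to -0.83, 28 to 30, 13 to 18 and 22 to 26 genes apart relative to neuron markers and 23 to 25, 10 to 15 and 18 to 23 subunits apart in share, since fewer mice separate more easily. Replicate numbers did not pair the mice (correlations of deviations from -0.07 to 0.11, with 1, 2 and 1 of 3 mice closest to their own number), and the replicate block changed no call of the 36 genes, with 6 in place of 7 other pathway genes called in SCI+FIPI against SCI. The cause of the other shifts was not tested. Slc17a7 is limited by depth.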

Other observations

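Ratios between related genes, chosen after their values were seen, do not depend on the scaling of the libraries but carry no correction for GC content. The log2 ratio of Gria1 to Gria2 per length was 1.37, 1.06 and 1.14 in the Sham mice, 1.82, 1.91 and 1.92 in the SCI mice and 1.72, 1.76 and 1.84 in the SCI+FIPI mice. Every injured mouse lay above every Sham mouse, by 0.70 in the mean for SCI and 0.59 for SCI+FIPI, and the injured groups overlapped. With offsets for GC content and length, the log2 fold changes of Gria1 and Gria2 were -0.89 and -1.08 in SCI against Sham and -0.49 and -0.66 in SCI+FIPI against Sham, much closer together. The log2 ratio of Homer3 to Homer1 went from 1.13, 1.25 and 1.28 in Sham to 3.06, 2.74 and 2.90 in SCI and 2.79, 2.80 and 2.88 in SCI+FIPI. The log2 ratio of Grin2a to Grin2b per length was 0.47, 0.33 and 0.33 in Sham and 0.17, 0.20 and 0.29 in SCI, a mean difference of -0.16 without overlap, and 0.38, 0.20 and 0.25 in SCI+FIPI, which overlapped both. The log2 ratio of Slc17a7 to Slc17a6 per length was -5.62, -5.32 and -4.68 in Sham, -7.12, -7.93 and -6.34 in SCI and -8.21, -6.26 and -6.69 in SCI+FIPI, with both injured groups under Sham and overlapping each other. As these pairs were chosen for their values, no test is given.

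Overlapping genes were read beside 2 NMDA receptor genes. Of the exonic bases of Grin3b, 32.1% lie opposite Tmem259, which was at 0.28 on the log2 scale in SCI against Sham while Grin3b was at -1.09. Of those of Grin1, 13.5% lie opposite Grin1os, which was at -1.14 in SCI against Sham and 0.46 in SCI+FIPI against SCI. Of the 50-base stretches of Grin2a, 14.3% occur in transcripts of other genes as well. The part of these overlaps in the values was not tested.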
